A study of Mus musculus with 3 samples.

Results

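Transcription factors that steer bipolar cell fate were followed as 9 genes of the 33696 in the feature table, each matched by its symbol to a single row. They were 5 homeodomain genes (*Isl1*, *Vsx1*, *Lhx4*, *Irx5* and *Irx6*), 3 basic helix-loop-helix genes (*Bhlhe22*, *Bhlhe23* and *Neurod4*) and the PR-domain gene *Prdm8*. The genes were fixed by name and not by a measured value, but with earlier results of these data known. Counts of them set beside shares of all genes are therefore descriptions. They were read in ON-type and OFF-type bipolar cells, in neurogenic precursors and in progenitors of 3 single-cell libraries.

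Bipolar cells are the retinal interneurons that carry signals from photoreceptors to amacrine and ganglion cells. ON bipolar cells answer glutamate through the metabotropic receptor *Grm6* and OFF bipolar cells through ionotropic receptors such as *Grik1*. Both kinds are born late, from dividing progenitors that pass through a short neurogenic precursor stage, and in the mouse this happens around the first postnatal week, under a code of homeodomain, basic helix-loop-helix and PR-domain factors.

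The study asked how loss of Norrin and β-catenin signaling affects retinal vessels, and its libraries were built from retinas of mice at postnatal day 6 (P6), digested and enriched with CD31 and CD11b beads for endothelial cells and microglia. The neurons described here are therefore cells that came through that enrichment. The groups were WT mice, *Tspan12* KO mice (lacking the Norrin co-receptor *Tspan12*) and *Ctnnb1* cKO mice, in which tamoxifen given in the first postnatal days activated *Pdgfb*-iCreERT to delete floxed *Ctnnb1* (β-catenin) in endothelial cells. All were on a C57BL/6 background. Each group was a single library of pooled retinas, the WT mice came from other litters, and genotype, litter and library cannot be told apart. With 1 library per group no test between genotypes was possible. Every interval below is a 95% interval for counting error only (exact Poisson for a level, exact conditional binomial for a ratio, Clopper-Pearson for a share), and molecules of a library are not replicates of a genotype.

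The files held 9951 barcodes and 92684519 UMIs (unique molecular identifiers, single captured mRNA molecules) for WT, 14426 barcodes and 137114957 UMIs for *Tspan12* KO, and 9151 barcodes and 37008362 UMIs for *Ctnnb1* cKO. After filtering 8989, 12732 and 8451 cells remained, and between 21 and 37 barcodes were shared by any pair of libraries. In endothelial cells *Tspan12* stood at 95.8 CPM (91.0 to 101) in WT, 85.3 CPM (78.4 to 92.7) in *Tspan12* KO and 40.5 CPM (37.1 to 44.1) in the *Ctnnb1* cKO library, where CPM is the gene's UMIs per 1000000 UMIs of the class. *Ctnnb1* stood at 524 CPM (513 to 535), 613 CPM (594 to 632) and 445 CPM (434 to 457) in the same order. *Tspan12* was therefore hardly lower in the library labelled *Tspan12* KO than in WT, and was lowest in the *Ctnnb1* cKO library. *Ctnnb1* was lower in the library labelled *Ctnnb1* cKO than in WT, but most of its level remained. Neither gene's level here checked its label, and *Tspan12* KO and *Ctnnb1* cKO stand below for the libraries labelled so. The paper reports efficient deletion in both mouse lines, with mRNA measured in lung lysates. It also reports lower *Apcdd1* and higher *Plvap* in endothelial cells of the knockout groups. The kit reads the 3′ end of transcripts, and whether the deleted parts of either gene lie there is not given in the sources used here.

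Cells were clustered without the 9 genes, so that these did not draw the classes themselves, although genes that vary with them were used. Bipolar cells numbered 513, 887 and 120 in the WT, *Tspan12* KO and *Ctnnb1* cKO libraries, and they were split further by marker genes fixed for ON and OFF cells. A single subcluster with *Grm6*, *Prkca* and *Gpr179* was called ON-type (79, 116 and 1 cells), and a pair of subclusters carrying *Fezf2* was called OFF-type (89, 210 and 3 cells). The OFF-type label is weak. Its list passed by 4 and 3 markers in the *Nxph1*-led and *Chrm3*-led subclusters, with mean log2 folds of 0.48 and -0.36 over the list. No minimum mean was asked of subclusters. The 0.5 asked of the main clusters was for folds over all other cells, while these folds are over other bipolar cells. The ON-type subcluster passed for *Lhx3*, *Zfhx4* and *Erbb4* of the OFF list too, with a mean of 0.11, beside 1.40 on the ON list. The summed OFF list stood at 6368 CPM in ON-type and 5682 CPM in OFF-type cells of WT, and at 5659 and 6160.3 CPM in *Tspan12* KO, so OFF-type is a working name for cells with little of the ON list (82.6 against 825 CPM in WT). *Grm6* stood at 187 CPM in ON-type and 17.6 in OFF-type cells of WT, and *Grik1* at 2843 and 3981 CPM. Neurogenic precursors numbered 360, 243 and 53 and progenitors 310, 175 and 89 cells. In *Ctnnb1* cKO 98 of the 120 bipolar cells lay in a subcluster led by *Ifitm3*, *Rpl35*, *C1qb* and *Fcer1g*, genes of microglia among them (Csf1r and Cx3cr1 followed), with a median of 1649 UMIs. No bipolar marker was in its top 10, but that list ranks genes against other bipolar cells and held none in most subclusters. The general bipolar list summed to 4184 CPM in the 120 cells, against 4840 CPM in WT bipolar cells. ON-type and OFF-type cells could not be compared in *Ctnnb1* cKO, and all bipolar cells were used as a single class.

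In WT the 9 genes differed in the class where they peaked among 11 cell classes, as the plot of levels by class shows. *Isl1*, *Vsx1*, *Bhlhe23*, *Prdm8* and *Irx6* were highest in ON-type bipolar cells, *Lhx4* in OFF-type bipolar cells, and *Bhlhe22* and *Neurod4* in the bipolar cells that carried neither label. *Irx6* in ON-type cells overlapped Müller glia within counting error, and *Irx5* was highest in Müller glia and progenitors.

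**Figure D1:**
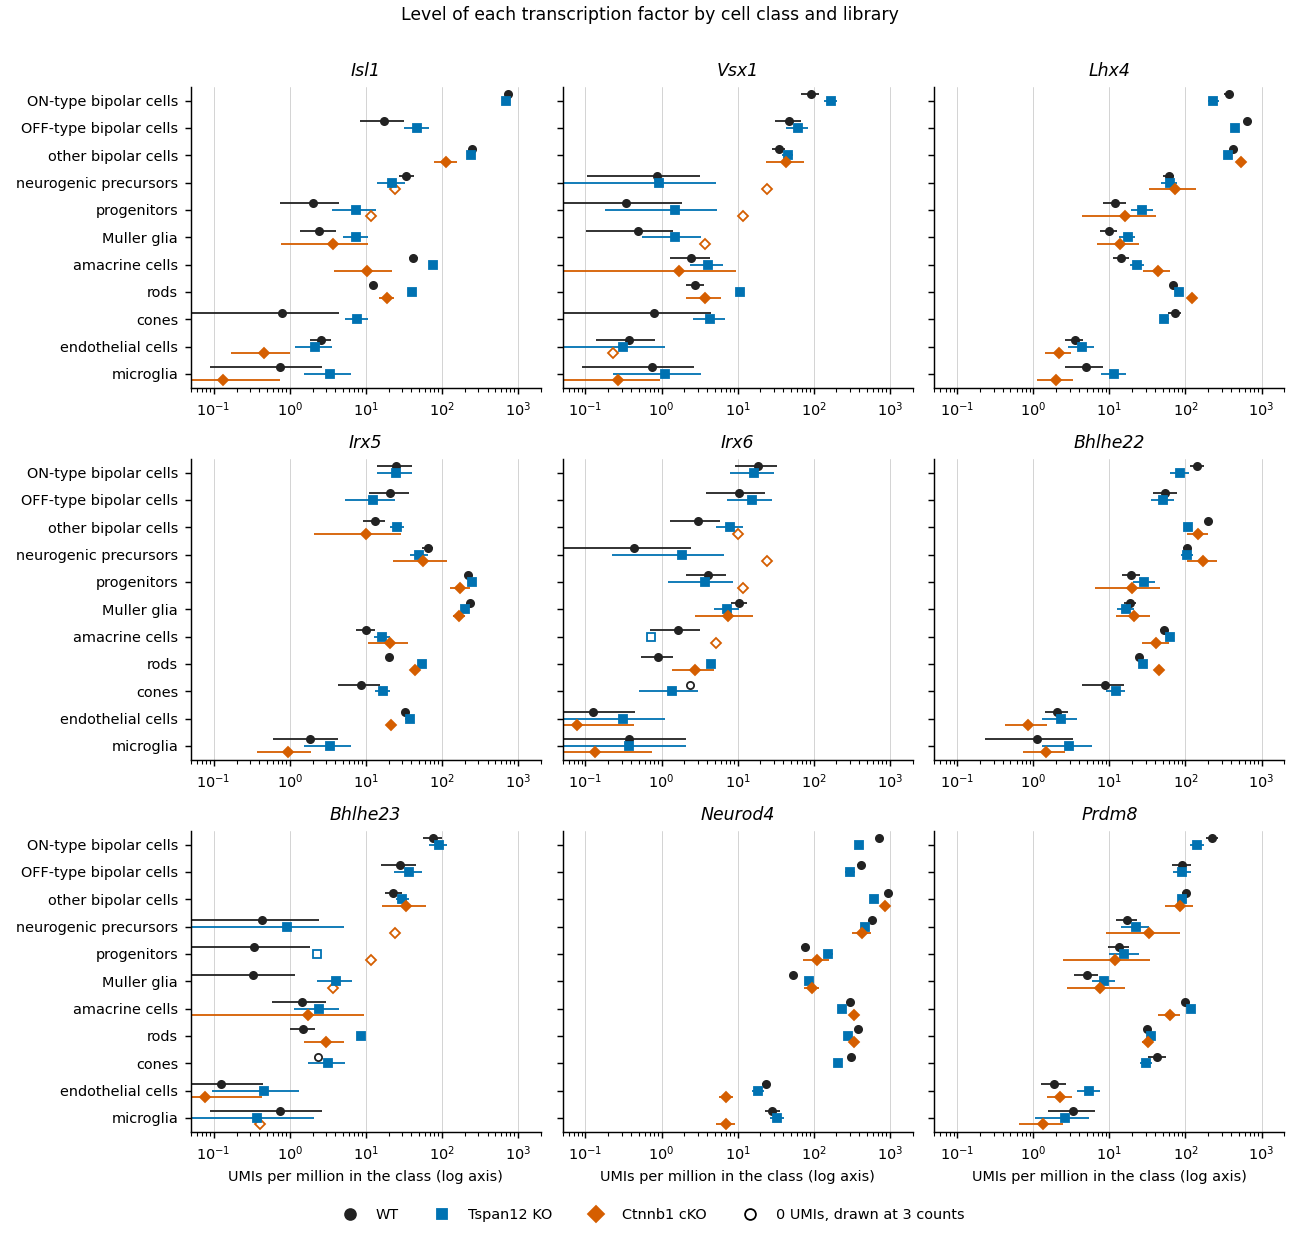
Level of each of the 9 genes (CPM, logarithmic axis) by cell class, with WT as black circles, *Tspan12* KO as blue squares and *Ctnnb1* cKO as orange diamonds. Bars are 95% counting intervals, and an open symbol marks a class with 0 UMIs, drawn at the level of 3 counts. *Isl1* spans 753 CPM in WT ON-type cells to 0.746 CPM in WT microglia, and *Irx5* in WT peaks in Müller glia and progenitors.

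*Isl1* (ENSMUSG00000042258), a LIM-homeodomain factor required for ON bipolar cells and also used by ganglion and cholinergic amacrine cells, reached 753 CPM (685 to 826) in ON-type cells of WT against 17.6 CPM (8.43 to 32.3) in OFF-type cells. Bipolar cells with neither label held 248 CPM (229.9 to 268), neurogenic precursors 34.2 CPM (27.0 to 42.6) and progenitors 2.02 CPM (0.740 to 4.39). Amacrine cells stood at 42.2 CPM (36.6 to 48.4), just above precursors and with overlapping intervals. The same order from ON-type to other bipolar to precursor to progenitor cells was seen in *Tspan12* KO, at 691, 239, 22.2 and 7.51 CPM.

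*Vsx1* (ENSMUSG00000033080), a paired-type homeodomain factor needed for the late differentiation of some cone bipolar types, was almost confined to bipolar cells in WT, at 91.7 CPM (69.1 to 119) in ON-type, 47.5 CPM (31.3 to 69.0) in OFF-type and 34.7 CPM (28.0 to 42.6) in other bipolar cells, the last pair with overlapping intervals. Precursors held 2 and progenitors 1 *Vsx1* UMI in all, at or under the floor of 3 counts. *Bhlhe23* (ENSMUSG00000045493), a repressor needed for rod bipolar maturation, followed *Vsx1* closely, at 76.7 CPM (56.1 to 102), 28.1 CPM (16.1 to 45.7) and 23.2 CPM (17.8 to 29.7) in the 3 bipolar groups, with 1 UMI in precursors and 1 in progenitors. Neither gene was thus measurable before the bipolar stage in WT. In rods, by far the most abundant neurons, *Vsx1* stood at 2.78 CPM in WT and 10.7 CPM in *Tspan12* KO, and *Bhlhe23* at 1.49 and 8.59 CPM.

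*Lhx4* (ENSMUSG00000026468), a LIM-homeodomain factor of cone bipolar cells and cones, showed the opposite bias, with 648 CPM (584 to 718) in OFF-type against 370.0 CPM (323 to 422) in ON-type cells of WT. Other bipolar cells lay between, at 427 CPM (402 to 452), overlapping the ON-type interval. Cones held 72.1, rods 67.6, precursors 60.4 and progenitors 11.8 CPM, so *Lhx4* was present at the precursor stage at about the level of photoreceptors.

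The basic helix-loop-helix genes *Bhlhe22* (ENSMUSG00000025128), a repressor used by amacrine and OFF cone bipolar cells, and *Neurod4* (ENSMUSG00000048015), a proneural factor that specifies bipolar cells, were already high in precursors. *Bhlhe22* stood at 104 CPM (91.4 to 118) in WT precursors, overlapping ON-type cells at 143 CPM (115 to 177), and above OFF-type cells at 54.5 CPM (37.0 to 77.3). *Neurod4* stood at 594 CPM (563 to 626) in precursors, 722 CPM (655 to 793) in ON-type, 424 CPM (372 to 481) in OFF-type and 964 CPM (928 to 1002) in other bipolar cells. *Neurod4* was also widespread among other neurons, at 388 CPM in rods, 311 in cones and 299.8 in amacrine cells. *Prdm8* (ENSMUSG00000035456), a factor required for rod bipolar and some OFF cone bipolar cells, held 225 CPM (189 to 266) in ON-type cells and 100.5 CPM (88.8 to 113) in other bipolar cells. *Prdm8* was as high in amacrine cells, at 99.0 CPM (90.3 to 108), as in other bipolar cells within counting error, and precursors held only 17.1 CPM.

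The Iroquois homeodomain genes *Irx5* (ENSMUSG00000031737) and *Irx6* (ENSMUSG00000031738) are both known from cone bipolar subsets. *Irx5* stood at 233 CPM (221 to 245) in Müller glia and 224 CPM (207 to 241) in progenitors of WT, with overlapping intervals. Precursors held 65.7 CPM (55.6 to 77.1), ON-type cells 25.0 CPM (14.0 to 41.2) and OFF-type cells 21.1 CPM (10.9 to 36.8), a fall of the level along that series. Endothelial cells held 33.1 CPM (30.3 to 36.0) and rods 20.5 CPM (18.6 to 22.6) of *Irx5*. The ON-type and OFF-type values did not stand above these within counting error. *Irx6* rested on 11 UMIs in ON-type and 6 in OFF-type cells of WT, at 18.3 CPM (9.15 to 32.8) and 10.5 CPM (3.87 to 23.0), and on 1 UMI in precursors. Müller glia held 10.6 CPM of *Irx6*, as much as OFF-type cells within counting error.

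The upstream sequences of 4 members are shown here because their levels set the poles of the pattern: *Isl1* with the largest ON-type bias, *Vsx1* and *Bhlhe23* with the most similar profiles of any pair, and *Lhx4* with the opposite bias. Each line gives the 250 bases before the gene's start, read 5′ to 3′ on the gene's own strand, from RefSeq on GRCm38.p6, while the labels name GRCm39 as the build behind the counts. The windows lie at chr13:116309689-116309938, minus strand (*Isl1*), at chr2:150689138-150689387, minus strand (*Vsx1*), at chr2:180776901-180777150, minus strand (*Bhlhe23*) and at chr1:155742028-155742277, minus strand (*Lhx4*). Capitals mark exact matches, on either strand, to TAATCC (the core bound by Otx and Crx factors), TAATTA (a homeodomain core) or the E-boxes CATATG (used by proneural factors), CAGATG (a near variant) and CAGCTG, letters chosen with the sequences in view.
Isl1: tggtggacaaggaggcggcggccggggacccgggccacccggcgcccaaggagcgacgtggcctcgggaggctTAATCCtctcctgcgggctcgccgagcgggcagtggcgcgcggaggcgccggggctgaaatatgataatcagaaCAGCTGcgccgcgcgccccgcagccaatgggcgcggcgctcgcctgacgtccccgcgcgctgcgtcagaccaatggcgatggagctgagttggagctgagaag
Vsx1: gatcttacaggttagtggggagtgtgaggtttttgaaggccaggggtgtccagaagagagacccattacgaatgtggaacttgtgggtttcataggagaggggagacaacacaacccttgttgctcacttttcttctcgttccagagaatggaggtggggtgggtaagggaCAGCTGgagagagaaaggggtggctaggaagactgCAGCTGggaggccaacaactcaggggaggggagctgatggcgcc
Bhlhe23: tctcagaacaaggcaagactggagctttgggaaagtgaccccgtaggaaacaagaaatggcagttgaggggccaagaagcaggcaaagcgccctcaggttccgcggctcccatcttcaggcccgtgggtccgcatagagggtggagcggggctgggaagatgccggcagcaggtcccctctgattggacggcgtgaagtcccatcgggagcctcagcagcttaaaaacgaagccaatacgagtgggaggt
Lhx4: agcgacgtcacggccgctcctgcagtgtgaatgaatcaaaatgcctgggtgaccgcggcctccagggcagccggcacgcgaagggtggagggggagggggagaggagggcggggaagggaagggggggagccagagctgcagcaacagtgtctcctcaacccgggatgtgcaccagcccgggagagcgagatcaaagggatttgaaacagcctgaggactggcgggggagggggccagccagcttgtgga
*Isl1* held a TAATCC 177 bases and a CAGCTG 103 bases before its start, and *Vsx1* held a CAGCTG at 79 and at 44 bases. *Bhlhe23* and *Lhx4* held none of the 5 motifs in this window, nor did either start of *Neurod4*, and *Prdm8* (at chr5:98180619-98180868, plus strand) held a CAGCTG at 217 bases. Of 32851 promoter windows of this length, 6.25% held TAATCC and 13% held CAGCTG, and a match is a description of the letters, not a bound site. *Bhlhe22*, *Irx5* and *Irx6* had no entry.

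ON-type cells were then set against OFF-type cells within each library. This describes the fate factors in classes that were drawn with genes that vary with them. In WT, 4 of the 9 genes were at least 2-fold higher in ON-type cells with an interval off 0 (*Isl1*, *Bhlhe22*, *Bhlhe23* and *Prdm8*) and none was lower to that extent, where 3.22% of 9968 genes with at least 10 UMIs in the pair were higher by this measure, 3.76% lower and 6.98% either. In *Tspan12* KO, 3 of the 9 were higher (*Isl1*, *Vsx1* and *Bhlhe23*), against 3.22% of 10117 genes higher, 3.55% lower and 6.77% either. In each library 6 of the 9 intervals lay above 0 and 1 lay below 0, that of *Lhx4*.

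*Isl1* separated the classes most, with 452 UMIs in ON-type and 10 in OFF-type cells of WT, a log2 ratio of 5.42 (4.53 to 6.49). In *Tspan12* KO it had 416 and 31 UMIs, 691 against 47.6 CPM and a log2 ratio of 3.86 (3.33 to 4.44). The ratio fell to 1.04 in *Tspan12* KO when each library was clustered alone and to 1.76 with cells of at least 1000 UMIs only, and to 2.09 in WT and 1.99 in *Tspan12* KO when unnamed clusters were added to their nearest class, so its size depended on how the classes were drawn, with the same direction in each of these.

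*Bhlhe23* was higher in ON-type cells of both libraries, by 1.45 (0.60 to 2.37) in WT and 1.31 (0.59 to 2.07) in *Tspan12* KO on the log2 scale. *Prdm8* was higher by 1.33 (0.85 to 1.82) in WT and by 0.66 (0.16 to 1.16) in *Tspan12* KO, the latter under 2-fold. *Bhlhe22* stood at 143 against 54.5 CPM in WT, a log2 ratio of 1.40 (0.79 to 2.04), which turned to -0.37 with unnamed clusters added, and at 84.8 against 50.7 CPM in *Tspan12* KO, a log2 ratio of 0.74 (0.08 to 1.42). These 3 genes therefore leaned to the ON-type side in both libraries, with intervals that overlapped between the libraries.

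*Vsx1* stood at 91.7 against 47.5 CPM in WT, a log2 ratio of 0.95 (0.26 to 1.67), and at 169.5 against 61.4 CPM in *Tspan12* KO, a log2 ratio of 1.46 (0.92 to 2.03) that turned to -0.44 with cells of at least 1000 UMIs only. *Neurod4* leaned the same way by 0.77 (0.54 to 1.0) in WT and 0.39 (0.11 to 0.67) in *Tspan12* KO. *Lhx4* was the single member lower in ON-type cells, with log2 ratios of -0.81 (-1.06 to -0.57) in WT and -0.95 (-1.25 to -0.66) in *Tspan12* KO, near 2-fold in each. *Irx5* and *Irx6* had intervals that covered 0 in both libraries, from -0.95 to 1.47 and from -0.76 to 2.52 in WT, so a difference of either gene was not detectable at this depth.

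**Figure D2:**
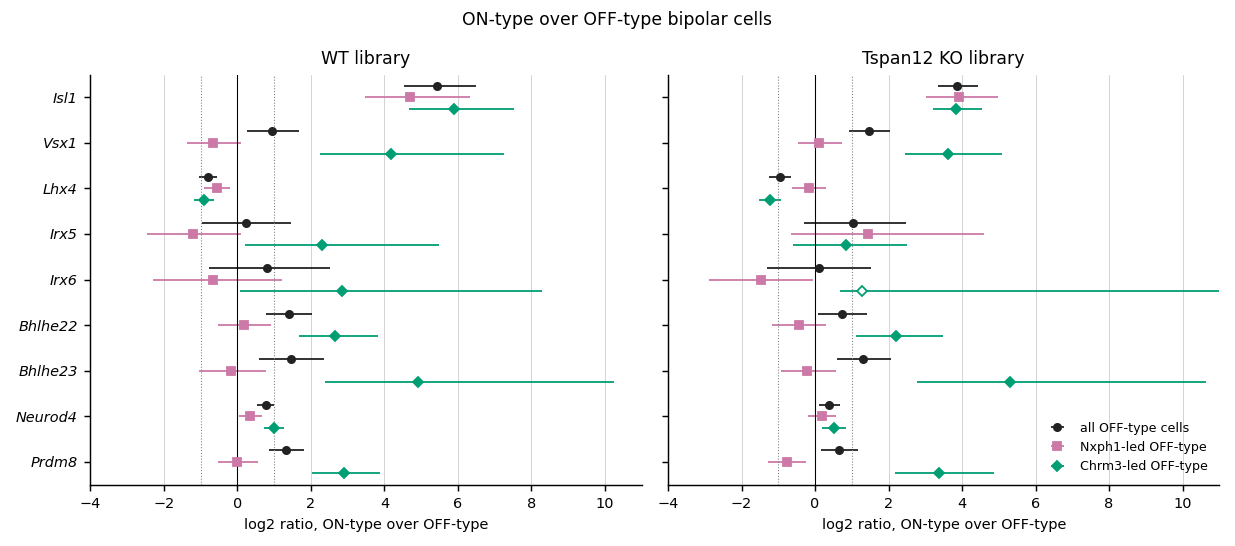
Log2 ratio of the level in ON-type bipolar cells over all OFF-type cells, over the *Nxph1*-led OFF-type subcluster and over the *Chrm3*-led one, for each of the 9 genes in WT and *Tspan12* KO. Bars are 95% counting intervals, cut at the edge of the axis where they run past it, dotted lines mark a 2-fold difference, and the open symbol is a bound against 0 UMIs. *Isl1* stays far to the right in every panel, while *Vsx1*, *Bhlhe23* and *Prdm8* move from near or below 0 against the *Nxph1*-led cells to the right against the *Chrm3*-led cells.

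The OFF-type class was not uniform. Its *Nxph1*-led subcluster (27 cells in WT and 73 in *Tspan12* KO, with *Lhx3*, *Zfhx4*, *Fezf2* and *Erbb4* as markers) held most of the *Vsx1*, *Bhlhe23*, *Bhlhe22* and *Prdm8* UMIs of the class, and its *Chrm3*-led subcluster (62 and 137 cells, with *Grik1*, *Prkar2b* and *Fezf2*) held little of any of them. The subclusters were defined without the 9 genes, although genes that vary with them were used.

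*Vsx1* stood at 144 CPM in *Nxph1*-led and 5.05 CPM in *Chrm3*-led cells of WT, and at 156 and 13.8 CPM in *Tspan12* KO, log2 ratios of 4.83 (2.83 to 7.96) and 3.50 (2.23 to 5.04). *Bhlhe23* went from 86.6 to 2.53 CPM in WT and from 106 to 2.31 CPM in *Tspan12* KO, with a single UMI in the *Chrm3*-led cells of each library. *Prdm8* went from 225 to 30.3 CPM and from 244 to 13.8 CPM, log2 ratios of 2.89 (1.93 to 3.96) and 4.14 (2.92 to 5.65). In all 3 genes the *Nxph1*-led cells were the high ones in both libraries. *Bhlhe22* differed likewise, by 2.48 (1.30 to 3.78) in WT and 2.64 (1.45 to 4.0) in *Tspan12* KO.

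The Iroquois genes were too sparse to place in both libraries. *Irx6* had 5 and 1 UMIs in WT, under the minimum of 10, and 10 and 0 UMIs in *Tspan12* KO. The latter gave a log2 ratio of 2.73 with the *Chrm3*-led side set to 3 counts, and a lower limit of 2.16. *Irx5* had 10 and 2 UMIs in WT, a log2 ratio of 3.51 (1.28 to 6.74), but 2 and 6 UMIs in *Tspan12* KO, under the minimum of 10.

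*Lhx4* and *Isl1* did not follow this division. *Lhx4* stood at 548 and 692 CPM in *Nxph1*-led and *Chrm3*-led cells of WT and at 262 and 544 CPM in *Tspan12* KO, the latter a log2 ratio of -1.05 (-1.5 to -0.63). *Isl1* was low in both, at 28.9 and 12.6 CPM in WT and 46.0 and 48.4 CPM in *Tspan12* KO. Of the 9 genes 5 were called higher in the *Nxph1*-led cells of WT and 5 in those of *Tspan12* KO, where 3.08% and 2.96% of all genes tested were, and 1 (*Lhx4*) was lower in *Tspan12* KO, where 3.82% were, and none in WT, where 3.05% were.

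Set against the *Nxph1*-led cells alone, ON-type cells of WT differed past 2-fold in a single member, *Isl1*, by 4.71 (3.47 to 6.34) on the log2 scale, where 4.44% of genes did. *Vsx1* (-0.65, -1.36 to 0.09), *Bhlhe23* (-0.18, -1.04 to 0.77) and *Bhlhe22* (0.18, -0.51 to 0.92) had intervals that covered 0. In *Tspan12* KO *Isl1* was higher by 3.91 (3.02 to 4.98) and *Irx6* lower, at -1.47 (-2.89 to -0.05), where 4.88% of genes differed. Against the *Chrm3*-led cells, 7 members were higher in ON-type cells of WT, all but *Lhx4* and *Neurod4*, where 8.32% of genes differed, and in *Tspan12* KO 6 were higher (*Irx6* from 10 UMIs against 0) and *Lhx4* lower, where 8.62% did. *Isl1* was the only one of the 9 that set ON-type cells past 2-fold above both OFF-type subclusters in both libraries, while the ON-type bias of *Vsx1*, *Bhlhe22*, *Bhlhe23* and *Prdm8* was a bias against the *Chrm3*-led cells. *Prdm8* in *Tspan12* KO lay below 0 against the *Nxph1*-led cells (-0.77, -1.28 to -0.25). *Lhx4* in *Tspan12* KO stood at -0.17 (-0.63 to 0.30) against the *Nxph1*-led and -1.23 (-1.54 to -0.92) against the *Chrm3*-led cells. In WT its intervals lay below 0 against both, at -0.57 (-0.92 to -0.20) and -0.90 (-1.17 to -0.64).

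Some of the bipolar subclusters that carried neither label are described next. Left out here and in the plot are the *Ifitm3*-led subcluster and those led by *Adcy2* and *Asic2*. The *Adcy2*-led one held 27 cells in WT and 105 in *Tspan12* KO, with a median of 10452.5 UMIs. The *Asic2*-led one held 11 and 39 cells, with a median of 13862 UMIs. A subcluster led by *Mybl1* (165 cells in WT and 145 in *Tspan12* KO) had, of the 6 subclusters plotted, the highest *Neurod4*, 1241 and 959 CPM, and the highest *Bhlhe22*, 277 and 198 CPM, with *Isl1* at 146 and 158 CPM and little *Vsx1*, 21.9 and 10.9 CPM. A subcluster led by *Gm26979* and *Erbb4* (82 and 163 cells) came nearest to ON-type cells in *Isl1*, at 532 and 579 CPM, and held *Bhlhe23* at 63.2 and 65.4 CPM. A subcluster led by *Ddx28* (58 and 107 cells) lay between, with *Isl1* at 236 and 241 CPM and *Lhx4* at 577 and 431 CPM. Over the 6 *Lhx4* ran from 370.0 to 692 CPM in WT, whereas *Isl1* ran from 12.6 to 753 CPM.

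**Figure D3:**
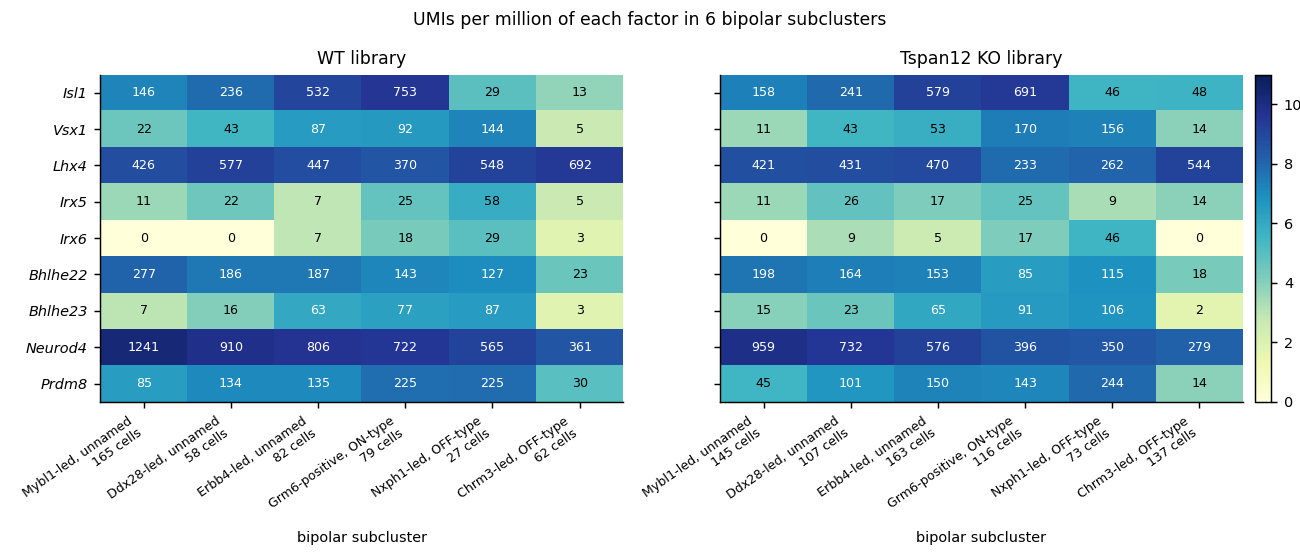
Level of the 9 genes (numbers in the cells, CPM, and colour, log2 of the level plus 1) in 6 of the 9 bipolar subclusters, in WT and *Tspan12* KO. The *Nxph1*-led OFF-type column is nearer to the ON-type column than the *Chrm3*-led one in *Vsx1*, *Bhlhe22*, *Bhlhe23* and *Prdm8*, but not in *Isl1*, and the *Chrm3*-led OFF-type column keeps mainly *Lhx4* and *Neurod4*.

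The same contrast was seen cell by cell once each cell was thinned to 2000 UMIs, which evens the depth between the libraries (4 and 30 ON-type and 6 and 82 OFF-type cells of WT and *Tspan12* KO were shallower and left out). At least 1 *Isl1* UMI was found in 60% (48.0 to 71.1%, 45 of 75 cells) of ON-type cells of WT and in 58.1% (47.0 to 68.7%, 50 of 86 cells) of those of *Tspan12* KO, against 4.82% (1.33 to 11.9%, 4 of 83 cells) and 4.69% (1.74 to 9.92%, 6 of 128 cells) of OFF-type cells. Without thinning the ON-type shares were 77.2% and 68.1%. The background in WT endothelial cells, which should lack the gene, was 0.192%, with a median of 17070 UMIs per cell against 6888 in ON-type cells.

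*Lhx4* was the reverse, detected in 73.5% (62.7 to 82.6%, 61 of 83 cells) of OFF-type and 44.0% (32.5 to 55.9%, 33 of 75 cells) of ON-type cells of WT, and in 57.8% (48.8 to 66.5%, 74 of 128 cells) and 37.2% (27.0 to 48.3%, 32 of 86 cells) in *Tspan12* KO. *Neurod4* was found in 69.3% (57.6 to 79.5%, 52 of 75 cells) of ON-type cells of WT, over a background of 5.38% in endothelial cells and 5.86% in microglia. *Irx5* was found in 4.0% (0.833 to 11.2%, 3 of 75 cells) of ON-type cells of WT, against 5.38% of endothelial cells and 0 of 239 microglia, where 3 cells would be 1.26%. In progenitors the share of *Irx5* was 31.4% (26.1 to 37.1%, 92 of 293 cells).

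Most cells carried too few molecules to show which factors coincide. Among all bipolar cells thinned in this way, *Vsx1* was found in 10.2% (5.70 to 16.6%, 14 of 137 cells) with *Isl1* and in 5.44% (3.31 to 8.37%, 19 of 349 cells) without *Isl1* in WT, and in 10.3% (6.33 to 15.7%, 19 of 184 cells) and 7.64% (5.32 to 10.6%, 33 of 432 cells) in *Tspan12* KO, overlapping intervals in each. *Prdm8* was found in 32.1% (25.4 to 39.3%, 59 of 184 cells) of *Tspan12* KO bipolar cells with *Isl1* and in 15% (11.8 to 18.8%, 65 of 432 cells) without it, while in WT the shares were 24.1% (17.2 to 32.1%, 33 of 137 cells) and 20.6% (16.5 to 25.3%, 72 of 349 cells).

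Of 16 other regulators of bipolar development, 15 had enough UMIs to be compared between ON-type and OFF-type cells in each library. In WT 3 were higher in ON-type cells (*Lhx3*, *Zfhx4* and *St18*) and 3 lower (*Neurod1*, *Nfib* and *Fezf2*), with a median log2 ratio of 0.14 beside -0.01 over all genes tested, and in *Tspan12* KO the same 3 were higher, and *Nfia*, *Nfib* and *Fezf2* were among those lower. *Otx2*, a factor of photoreceptors and bipolar cells, hardly differed, at 0.07 (-0.07 to 0.20) in WT. *St18*, a zinc-finger factor, was higher by 4.06 (2.97 to 5.40) in WT and 5.23 (3.84 to 7.13) in *Tspan12* KO, and *Nfib*, a nuclear factor I gene, lower, at -4.87 (-5.18 to -4.58) and -3.83 (-4.04 to -3.62). *Lhx3*, *Zfhx4* and *Fezf2* were among the markers that named the subclusters, so their differences are descriptions of the labels.

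Of 14 ON signalling genes, 6 of the 7 with enough UMIs were higher in ON-type cells of WT and 9 of 10 in those of *Tspan12* KO, none lower. Of all genes tested 3.22% were higher in each library. *Grm6*, *Prkca* and *Gpr179* named the class, and *Trpm1*, *Gng13* and *Pcp2* were in the ON list whose mean fold chose its label. The differences of these genes are therefore descriptions of the label. *Gnb3*, the photoreceptor and ON bipolar G protein subunit, stood at 725 CPM in ON-type and 299 CPM in OFF-type cells of WT, with 725 and 278 CPM in *Tspan12* KO. *Trpm1*, the channel that *Grm6* closes, had 30 UMIs in ON-type and 0 in OFF-type cells of *Tspan12* KO, a log2 ratio of 3.44 with 0 set to 3 counts. Of 8 OFF receptor and cone bipolar genes only the calcium-binding protein *Cabp5* passed, lower in ON-type cells, at -3.78 (-6.12 to -2.12) in WT and -1.11 (-2.22 to -0.09) in *Tspan12* KO.

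In the library labelled *Tspan12* KO, most of the 9 genes stayed within 2-fold of WT in bipolar cells, and a log2 ratio in parentheses is followed by its interval. In ON-type cells none of the 9 passed 2-fold, where 6.06% of 9955 genes did. *Isl1* stood at 691 against 753 CPM, a log2 ratio of -0.12 (-0.32 to 0.07). *Vsx1* had an interval above 0, at 169.5 against 91.7 CPM and 0.89 (0.40 to 1.39), and *Neurod4* (-0.87, -1.10 to -0.64), *Bhlhe22* (-0.76, -1.29 to -0.24), *Lhx4* (-0.67, -0.98 to -0.36) and *Prdm8* (-0.65, -1.06 to -0.25) had intervals below 0. The ON-type cells of the library labelled *Tspan12* KO had a median of 4256.5 UMIs against 6848 in WT, and the rod marker list summed to 854 against 302 CPM in them. The part of depth and rod RNA in these differences was not tested.

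In OFF-type cells 1 of the 9 passed, *Isl1*, with 31 against 10 UMIs, 47.6 against 17.6 CPM and a log2 ratio of 1.44 (0.37 to 2.63), where 4.55% of 10120 genes did. It turned to -0.03 at the finer clustering and to -0.02 with unnamed clusters added. Rods, whose marker list summed to 1431 against 639.7 CPM in OFF-type cells, themselves carried *Isl1* at 40.7 CPM in the library labelled *Tspan12* KO and 12.5 CPM in WT. Their part in the OFF-type value was not tested. *Lhx4* (-0.53, -0.75 to -0.30) and *Neurod4* (-0.49, -0.76 to -0.21) had intervals below 0, as in ON-type cells. The 2 OFF-type subclusters differed in this. In *Nxph1*-led cells alone 2 of the 9 passed, where 4.88% of 6635 genes did. There *Lhx4* stood at 262 against 548 CPM and *Irx5* at 9.20 against 57.7 CPM, from 2 and 10 UMIs. In *Chrm3*-led cells *Lhx4* stood at 544 against 692 CPM and *Isl1* at 48.4 against 12.6 CPM, from 21 and 5 UMIs.

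Over all bipolar cells none of the 9 passed, where 4.74% of 14491 genes did. The lower levels of *Bhlhe22*, 96.2 against 169.8 CPM and -0.82 (-1.0 to -0.64), and of *Neurod4*, 552 against 847 CPM and -0.62 (-0.69 to -0.54), were under 2-fold. *Vsx1* was higher by 0.51 (0.23 to 0.79), and *Isl1* was level at -0.11 (-0.23 to 0.01). Beside these values, the *Mybl1*-led subcluster, highest in *Neurod4* and *Bhlhe22*, held 165 of 513 bipolar cells in WT and 145 of 887 in the library labelled *Tspan12* KO. The part of class makeup in these values was not tested.

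In neurogenic precursors 6 of the 9 had enough UMIs and none passed, where 3.89% of 12486 genes did. *Neurod4* stood at 476 against 594 CPM (-0.32, -0.47 to -0.17), *Bhlhe22* at 105 against 104 CPM (0.01, -0.32 to 0.34) and *Lhx4* at 61.8 against 60.4 CPM (0.03, -0.41 to 0.46). For these 3 genes the intervals stayed inside 2-fold at this stage.

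In progenitors 3 of the 7 with enough UMIs were higher in the library labelled *Tspan12* KO, where 1.8% of 13022 genes were higher and 3.69% differed either way. *Neurod4* stood at 156 against 77.0 CPM (1.02, 0.74 to 1.30), *Lhx4* at 27.0 against 11.8 CPM (1.20, 0.49 to 1.91) and *Isl1* at 7.51 against 2.02 CPM from 10 and 6 UMIs (1.90, 0.29 to 3.64). All 3 are genes of later cells, and their levels in progenitors were below those in bipolar cells of the same library. The rod marker list summed to 808 against 455 CPM in these progenitors. With no doublets removed the *Neurod4* ratio was 0.03 and the *Lhx4* ratio 0.74, and as a mean over cells the *Lhx4* ratio was -0.33. *Irx5*, the member highest in Müller glia and progenitors of WT, was level at 246 against 224 CPM (0.14, -0.05 to 0.33). The part of rod RNA in the 3 differences was not tested.

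**Figure D4:**
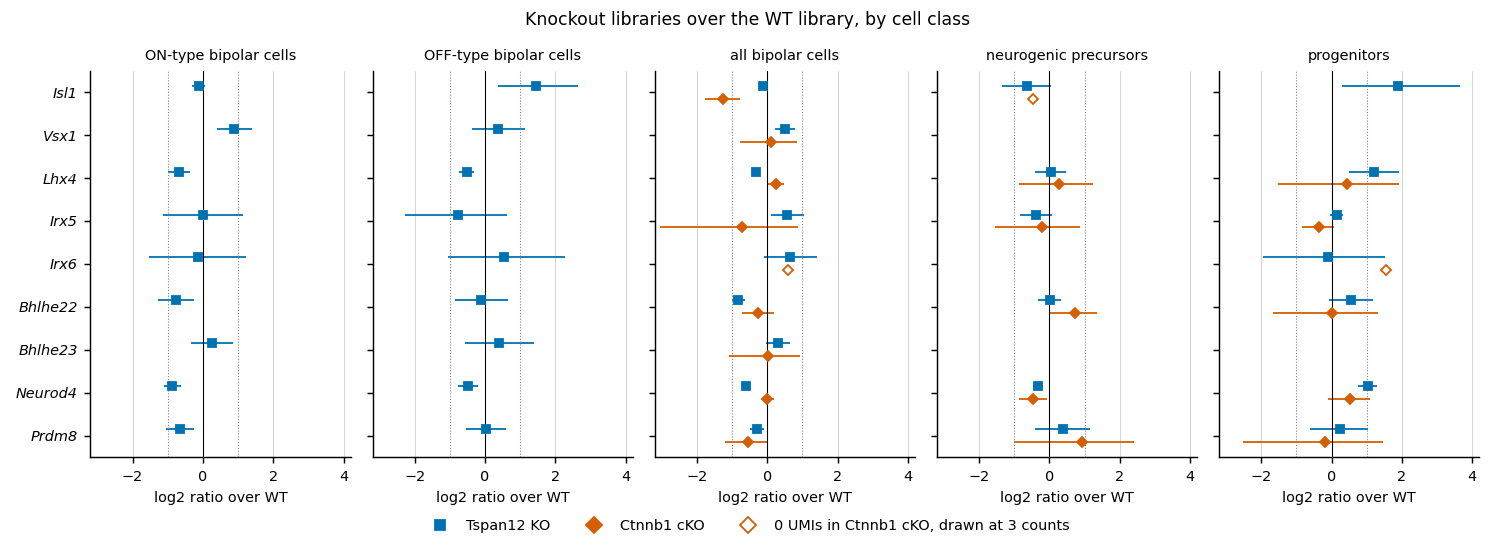
Log2 ratio of the level in *Tspan12* KO (blue squares) and in *Ctnnb1* cKO (orange diamonds) over WT for each of the 9 genes, by cell class, with 95% counting intervals and dotted lines at a 2-fold difference. Genes with fewer than 10 UMIs in the pair are not drawn, and an open symbol marks 0 UMIs in *Ctnnb1* cKO, drawn at 3 counts. The bipolar and precursor ratios of *Tspan12* KO lie inside the 2-fold lines save *Isl1* in OFF-type cells, and *Isl1* in *Ctnnb1* cKO bipolar cells lies to the left.

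In the *Ctnnb1* cKO library the deletion is by design endothelial, and the neurons are not the targeted cells. There 1 of the 9 passed over all bipolar cells, where 4.97% of 12965 genes were lower and 9.69% differed either way. *Isl1* had 38 against 1127 UMIs, 123 against 293 CPM and a log2 ratio of -1.25 (-1.76 to -0.78). The ratio was under 2-fold when free RNA was taken off (-0.55), as a mean over cells (-0.61), with cells of at least 1000 UMIs only (-0.71), with the library clustered alone (-0.74) and with unnamed clusters added (-0.48). Beside it, 1 of the 120 bipolar cells carried the ON-type label against 79 of 513 in WT. That label was given by subcluster, and 98 of the 120 lay in the unnamed *Ifitm3*-led subcluster, so this is not a count of ON cells. The ON marker list summed to 165 against 242 CPM in WT. The median was 1816.5 against 6280 UMIs, and the microglia marker list summed to 648 against 110.0 CPM. The part of each in the *Isl1* value was not tested.

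Most of these cells lay in the subcluster with microglial leading genes, so the values of the other members are given for the class as it stood. *Neurod4* stood at 849 against 847 CPM (0.00, -0.18 to 0.19), *Lhx4* at 535 against 451 CPM (0.25, 0.01 to 0.48) and *Vsx1* at 48.6 against 45.5 CPM (0.10, -0.77 to 0.86). *Bhlhe22* (-0.25, -0.73 to 0.19) and *Bhlhe23* (0.01, -1.09 to 0.93) had intervals that covered 0, as did *Prdm8* (-0.55, -1.19 to 0.03) and *Irx5*, from 3 UMIs (-0.73, -3.05 to 0.88). *Irx6* had 0 UMIs in the 120 cells, with a floor of 9.72 CPM at 3 counts, above its WT level of 6.50 CPM, so a loss was not detectable.

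In the 53 precursors of *Ctnnb1* cKO none of the 6 genes with enough UMIs passed, where 7.12% of 11678 genes did. *Isl1* had 0 UMIs against 34.2 CPM in WT, a log2 ratio of -0.48 with 0 set to 3 counts and an upper limit of -0.15. *Neurod4* (-0.46, -0.88 to -0.06) also had an interval below 0, and *Bhlhe22* (0.72, 0.00 to 1.36) had one that began at 0. In the 89 progenitors none of 6 passed either, where 8.92% of 12516 genes did, with *Irx5* at 174 against 224 CPM (-0.36, -0.84 to 0.08) and *Neurod4* at 111 against 77.0 CPM (0.52, -0.10 to 1.09). The microglia marker list summed to 523 CPM in these precursors and 542 in these progenitors, against 95.5 and 112 in WT.

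Few of the 16 other bipolar regulators passed 2-fold between genotypes, and none was lower. In *Tspan12* KO over WT, with a median log2 ratio of -0.13 beside -0.14 for the 9 genes, 2 of 15 measured were higher in ON-type cells, where 6.06% of all genes differed, *Nfib* with a log2 ratio of 1.08 (0.73 to 1.45, 204 against 96 UMIs) and *Fezf2* with 2.0 (0.11 to 4.46, 12 against 3 UMIs). In precursors, progenitors and all bipolar cells 0 passed, where 3.89%, 3.69% and 4.74% of all genes did. In *Ctnnb1* cKO over WT the photoreceptor and bipolar factor *Neurod1* was higher in progenitors, at 1.26 (0.94 to 1.56, 108 against 532 UMIs), where 8.92% of all genes differed, and in all bipolar cells, where 9.69% did, at 1.02 (0.86 to 1.18, 377 against 2314 UMIs), and none of the others passed.

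Of the ON signalling genes, 3 of 12 measured were higher in ON-type cells of *Tspan12* KO, where 6.06% of all genes differed, with a median log2 ratio of 0.63 beside -0.004 over all genes tested. They were the ON channel gene *Trpm1*, at 4.90 (2.31 to 10.25, 30 against 1 UMIs), *Gng13*, at 2.50 (0.71 to 4.91, 17 against 3 UMIs), and *Pcp2*, at 3.24 (1.19 to 6.39, 19 against 2 UMIs), so the WT side rested on 1 to 3 UMIs. *Gnb5* was higher in OFF-type cells, at 1.58 (0.62 to 2.64, 41 against 12 UMIs). Of the OFF receptor and cone bipolar genes, 2 of 6 were higher in ON-type cells, *Cabp5* and *Rcvrn*, and 1 of 7 in OFF-type cells (beside 4.55% of all genes), *Rcvrn* again, at 2.13 (0.55 to 4.14, 20 against 4 UMIs). *Rcvrn* and *Grik1* were higher in precursors of *Tspan12* KO, and *Grik1* also in progenitors of both knockout libraries. In all bipolar cells of *Ctnnb1* cKO the kinase gene *Prkca* was lower, at -1.31 (-2.05 to -0.65, 19 against 586 UMIs), and *Rcvrn* higher, at 2.05 (0.92 to 3.08, 11 against 33 UMIs). *Rcvrn* and *Neurod1* are also genes of rods.

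Over 34 profiles of a class in a library with at least 50 cells each, 18818 genes were ranked by the Pearson correlation of log2(CPM + 1) with each member, as a description, since profiles of a class share its cells' identity and those of a library its depth. *Vsx1* was most like *Bhlhe23* (0.98), *A730046J19Rik* (0.97) and *Gm534* (0.97), and *Bhlhe23* most like *Vsx1* (0.98), *A730046J19Rik* (0.97) and *Grm6* (0.96), so each was the other's nearest gene. *Isl1* was most like *Nyap2* (0.95), *Car10* (0.92) and *Gm57443* (0.90), and *Lhx4* most like *Map6* (0.96), *Clvs1* (0.95) and *Zfp385b* (0.94). Of the basic helix-loop-helix genes present in precursors, *Bhlhe22* was most like *Sox4* (0.95), *Gm26930* (0.94) and *Cadps* (0.94), and *Neurod4* most like *Srrm4* (0.97), *Dcc* (0.95) and *Otx2* (0.95). *Prdm8* was most like *Mir124-2hg* (0.97), *Gprin1* (0.96) and *Gdap1* (0.96). *Irx5* stood apart from the other 8, with its nearest genes *Aif1l* (0.91), *Asrgl1* (0.90) and *Bccip* (0.88) and correlations between -0.15 (*Vsx1*) and 0.38 (*Irx6*) with the members. *Irx6* had the weakest likeness to any gene, *Gm56658* (0.83), *Cdh10* (0.80) and *Acss2os* (0.80).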

How the data were processed

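Per the labels and the study's methods, single-cell 3′ libraries of P6 retinas enriched with CD31 and CD11b beads were aligned and counted with Cell Ranger. The labels name GRCm39 and the methods another build, so counts carry no coordinates here. The deposited values are UMI counts per gene and cell, which the authors did not normalize.

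Cells needed 250 genes, 500 UMIs and a mitochondrial share of no more than 15%, and the highest Scrublet scores (0.8% per 1000 cells) were removed as doublets, since its automatic threshold called 0, 2 and 343 cells. All libraries were clustered together (scanpy 1.11.5, leidenalg 0.10.2; 2000 variable genes, 30 components, 20 neighbours, resolution 1), without the 9 genes. The 30 clusters were named from 21 marker lists, with at least 3 markers past a log2 fold of 1. The 1520 bipolar cells were clustered again into 9 subclusters.

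UMIs were summed per class and library. A gene was called with at least 10 UMIs in a pair, a 2-fold ratio and an interval off 0, a side at 0 being set to 3 counts. Classes had at least 50 cells in each library compared, and single OFF-type subclusters, compared after seeing the data, at least 20. The calling was tried on Poisson counts simulated from pooled class profiles, the model its intervals assume. Differences between libraries, in cell makeup or in free RNA were not simulated, so the trial says nothing on these. The genes named were the 9 members, genes of the lists fixed for ON signalling, OFF receptors and other regulators, marker genes, and the 3 genes most correlated with each member. Members and lists were chosen with earlier results of these data known. Alternatives changed the clustering, cell filter, doublets, weighting, free RNA, count minimum, fold and scaling (edgeR 4.0.16 TMM factors). No column was left unused. Some genes of the lists are not reported here.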

Additional observations from a re-analysis of the deposited data

How the results depend on the processing

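Counts of members past 2-fold, and single ratios, depended on which cells made up a class, and the cause was not tested. Over 80 values, 602 recomputations stayed close to the value reported, 145 moved and 8 changed sign, and TMM scaling left all 80 close. With each library clustered alone, *Tspan12* KO over WT gave 2 members in ON-type and 4 in all bipolar cells, and *Ctnnb1* cKO over WT gave 2 in precursors, 7 in progenitors and 0 in bipolar cells. In these settings 7.99%, 12.8%, 11.8%, 52.9% and 9.22% of all genes tested were called. At resolution 2 the counts were 2 for ON-type over OFF-type cells in WT and 1, 0 and 2 for *Tspan12* KO over WT in ON-type, OFF-type and all bipolar cells, with *Isl1* at -0.026 in OFF-type cells. Of all genes tested, 5.42%, 5.38%, 5.57% and 5.61% were called in that order. With the members among the clustering genes, *Tspan12* KO over WT gave 2 in OFF-type cells and 1 in progenitors, beside 4.41% and 3.7% of all genes. With unnamed clusters added it gave 0 in OFF-type and 2 in all bipolar cells, and *Ctnnb1* cKO gave 0 in bipolar cells, beside 5.13%, 4.75% and 9.39% of all genes. There *Bhlhe22* in WT stood at -0.37 and *Isl1* in OFF-type cells at -0.022. A marker gate per cell gave 0 in OFF-type cells, 4 in precursors and 8 in progenitors of *Tspan12* KO, and 1 in precursors and 1 in progenitors of *Ctnnb1* cKO, with under 50 ON-type cells, beside 4.57%, 9.67%, 24.2%, 12.2% and 14.2% of all genes. In the other alternatives named here between 3.4% and 15.5% of all genes were called. With no doublets removed *Tspan12* KO progenitors gave 1, beside 3.4% of all genes. Cells of at least 1000 UMIs gave 2 in *Tspan12* KO and 0 in *Ctnnb1* cKO bipolar cells, beside 5.62% and 8.08% of all genes. *Vsx1* then stood at -0.44 for ON-type over OFF-type cells of *Tspan12* KO. A mean over cells gave 1 in ON-type cells and 1 in progenitors of *Tspan12* KO and 0 in *Ctnnb1* cKO bipolar cells. The shares of all genes were 9.96%, 6.61% and 15.5%, and *Lhx4* stood at -0.33 in progenitors of *Tspan12* KO. Free RNA was estimated at 11.4% in WT and 54.2% in *Ctnnb1* cKO. Taking it off gave 1 in precursors and 0 in bipolar cells of *Ctnnb1* cKO, beside 10.4% and 14.1% of all genes. The estimate reached its cap of 100% in *Tspan12* KO, so no corrected value is given there. At a fold of 1.5, ON-type over OFF-type cells gave 7 in WT and 6 in *Tspan12* KO, beside 10.6% and 10.2% of all genes. *Tspan12* KO over WT then gave 5 in ON-type and 2 in all bipolar cells, beside 10.5% and 10.8%, and *Ctnnb1* cKO gave 1 in precursors, beside 9.83%.

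The comparison over all bipolar cells and 3 alternatives were chosen after seeing the data. ON-type cells against the *Nxph1*-led OFF-type cells alone gave 1 member in WT, where 4.44% of genes were called. The ON-type ratios were -0.18 (*Bhlhe23*) and -0.00032 (*Prdm8*) in WT and -0.21 (*Bhlhe23*) in *Tspan12* KO. Within the *Nxph1*-led cells *Tspan12* KO over WT gave 2 members, where 4.88% of genes were called. Against the *Chrm3*-led cells alone, 7 members passed in each library, where 8.32% of genes did in WT and 8.62% in *Tspan12* KO. Leaving out bipolar subclusters of high UMIs or of 1 library kept the count of *Tspan12* KO over WT in all bipolar cells at 0, with *Isl1* at 0.13. The share of *Vsx1* among cells with *Isl1* was 5.15% in WT when thinned to 1000 UMIs and 20.5% in WT and 25.6% in *Tspan12* KO when not thinned, and among cells without *Isl1* it was 6.47% in WT, above that with *Isl1*, and 4.19% in *Tspan12* KO at 1000 UMIs and 13.5% in WT when not thinned. Some alternatives left under 50 *Ctnnb1* cKO precursors and gave no value. No paired analysis was possible because each group is 1 library, which also means that no replicate could be left out.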
